A study of Oncorhynchus kisutch with 9 samples.

Results

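In liver RNA of growth hormone transgenic coho salmon (Oncorhynchus kisutch), 104 of 8736 microarray spots differed between full-ration transgenic fish and both other pools. At these 104 spots the ratio between the other pools stayed under a set limit. These spots were chosen by their measured ratios. The comparison of full-ration transgenic with non-transgenic fish and that of full-ration with ration-fed transgenic fish both had to reach a log2 size of 0.8 (1.74-fold) on the same side. The ratio of ration-fed transgenic to non-transgenic fish had to stay under a log2 size of 0.5 (1.41-fold). The values that chose the spots are therefore given as a description, with no test, and they support nothing. Once a dye trend shared by the arrays was removed, 54 of the 104 spots still met the limits.

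Growth hormone acts on the liver through its receptor, and one of its best known hepatic targets is insulin-like growth factor 1, which drives body growth. Food supply changes this axis: in fasted or restricted fish the liver typically answers growth hormone with less insulin-like growth factor 1. Growth hormone transgenic salmon carry an added growth hormone gene and outgrow unmodified fish on ample food. A restricted ration can help to separate the transgene from the extra feeding and growth that come with it. How far it did so here cannot be told without the amounts fed.

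3 pools were hybridised: full-ration growth hormone transgenic adults (T), ration-fed growth hormone transgenic adults (R) and non-transgenic adult controls (C). Each pool held equal RNA quantities from 5 fish, with 20 ug of total RNA per labelling reaction. Every one of the 3 comparisons (T over C, T over R, R over C) had 3 arrays from a single slide batch, 1 of them with the dyes in the opposite order. Not given in the sources used here were the amounts fed, the age beyond adult, the promoter of the transgene and the ration of the controls.

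The 3 arrays of a comparison hold the same RNA, so a pool is 1 sample and every SD below is the spread between repeat hybridisations, not between fish. In pooled whole liver, fewer cells of a type and less RNA per cell cannot be told apart. The sign was turned in arrays with the first-named pool in Cy3, so that this pool has the same place in the ratio in every array. The labels do not say which dye is the numerator, so "positive side" and "negative side" stand for the sign of the turned ratio. If the values are Cy5 over Cy3, the positive side means that the first-named pool was higher. With Cy3 over Cy5 it means that this pool was lower. With arrays centred and turned, arrays of opposite dye order correlated at -0.53 to -0.05 over all spots, and once a dye trend shared by the arrays was removed they correlated at 0.53 to 0.73. The removal is a lowess curve against the mean of all 9 arrays, and that mean enters every array's values, which itself favours such agreement.

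No member could be named. 8 of the 8736 spots carried a gene symbol in the platform annotation, from 4 genes, and 0 of the 104 members were among them. Hepatocyte markers and the growth axis genes were not among these symbols, so the tissue label could not be checked. The 4 genes stood on the lists set for immune, connective tissue and fat cells and for glucose and lipid metabolism. That is too few to check any of these lists. The named spots nearest the rule were those of col1a2, a chain of type I collagen. They measured 0.36 and 0.53 in T over C, 0.76 and 0.61 in T over R, and -0.26 and -0.10 in R over C. Both lay short of the limit of 0.8 in both T comparisons. Spots of tap1 (an antigen peptide transporter), pck2 (a gluconeogenic enzyme) and pparg (a fat-cell nuclear receptor) had sizes of at most 0.31 in every comparison.

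The rule was met by 1.19% of all spots. 81 of the 104 members (77.9%) lay on the positive side and 23 on the negative side. On leaving out 1 array, the split moved most with 2 of them: without array 1 of T over C, 11 of 54 spots (20.4%) were positive, and without array 3 of T over R, 212 of 214 (99.1%). Each was the only array of its dye order in its comparison, so its omission takes away the dye balance there. Leaving out any other array left 68.9% to 84.9% positive. On the way to the members, 506 spots reached the limit in T over C and 206 in T over R. 125 spots reached both on the same side, and 21 of these were left out because R over C was not under its limit. The median size of the members was 1.04 in T over C (2.06-fold), 1.01 in T over R (2.02-fold) and 0.18 in R over C (1.14-fold). Sizes ran from 0.80 to 2.35 in T over C, from 0.80 to 2.21 in T over R and up to 0.49 in R over C. A difference of at least 2-fold was measured at 63 members in T over C, at 54 in T over R and at 39 in both. In the T over C comparison 4 members passed 4-fold. 32 members were within 0.1 of zero in R over C, and 78 within 0.3. Over all spots the R over C size had a median of 0.14 and quartiles of 0.06 and 0.25. The members were thus no nearer to zero in R over C than spots in general.

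**Figure D1:**
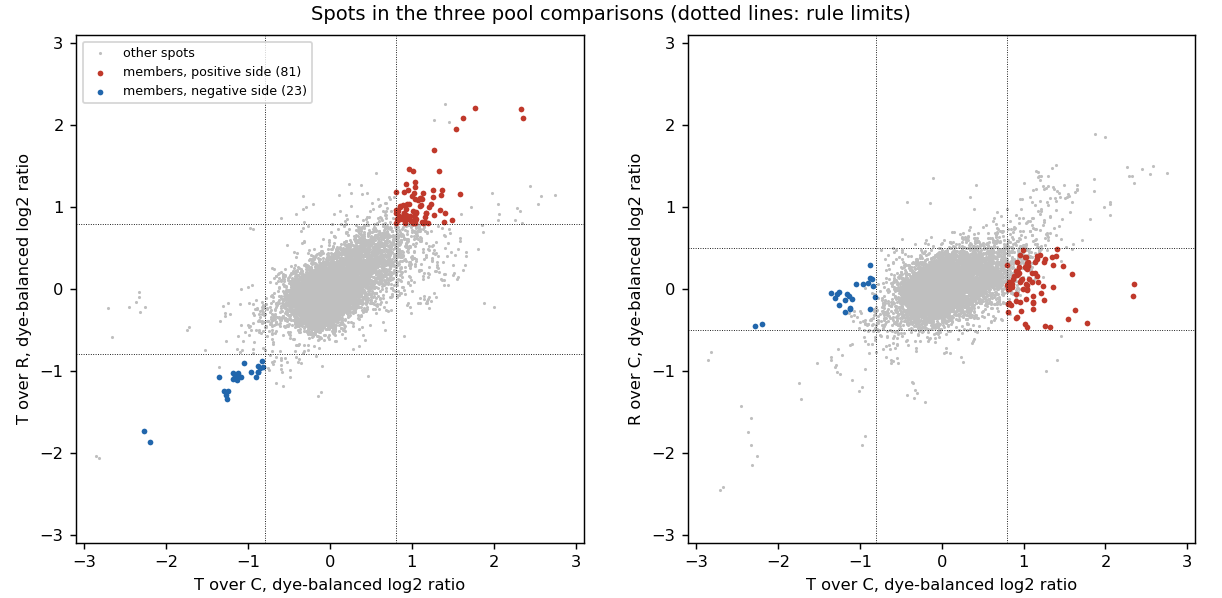
Dye-balanced log2 ratios of all 8736 spots, T over R against T over C on the left and R over C against T over C on the right, with the 104 members in red (81, positive side) and blue (23, negative side). Dotted lines are the limits of 0.8 and 0.5 that chose the members, so their place outside or between the lines is the rule itself.

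Members nearest the limit differed little from the spots just outside it. Inside, spot 1011012 measured 1.01 in T over C and 0.8003 in T over R. Spot 8031306 had 0.8007 in T over C, and spot 4031312 had 0.8012 in T over R. Outside, T over R was 0.7991 at spot 6030814, 0.7987 at spot 9041205 and 0.7912 at spot 8011008. These last 3 spots passed the other limits, at T over C values of 1.12, 0.96 and 0.96.

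The array was read as printing clones in neighbouring pairs, an odd column and the next even one. By that reading the members fell in 65 pairs. Both spots were members in 39 pairs (28 positive, 11 negative), which hold 78 members, and 1 spot was a member in 26 pairs. Within the 39 pairs the spots differed by a median of 0.07 in each of the 3 comparisons and by at most 0.29 in T over C, 0.33 in T over R and 0.29 in R over C. Pairs are named below by the identifier of their first spot, ranked by the mean of their sizes in T over C and T over R, with the first 8 on each side named. The spots of a pair share an array and probably a clone, so they are not independent.

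Pair 9011105 had the largest mean size of the 28 positive pairs. On the centred arrays it measured 3.14, 1.29 and 1.82 in T over C, 2.98, 2.69 and 1.45 in T over R, and 0.73, 0.71 and -0.73 in R over C. All 6 arrays with the T pool were on the positive side, and the R over C arrays split by dye order. The dye-balanced means were 2.35 in T over C (5.09-fold), 2.14 in T over R (4.43-fold) and -0.01 in R over C. Once the dye trend was removed, its arrays lay much closer: 2.21, 2.04 and 2.17 in T over C, 2.12, 2.03 and 2.04 in T over R, and -0.07, -0.16 and -0.13 in R over C. The T ranges stayed clear of the R over C range by about 2 log2 units.

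Pair 8040601 was the next on the positive side, and T over R was its larger comparison. With the dye trend removed its arrays read 1.44, 1.34 and 1.60 in T over C, 2.23, 2.20 and 1.75 in T over R, and -0.53, -0.80 and -0.19 in R over C. No value of R over C reached the positive side. Pair 12030405 had the same arrangement, with 1.14 ± 0.38 in T over C, 1.46 ± 0.32 in T over R and -0.51 ± 0.35 in R over C (SD, 3 arrays). Here and below, the value before ± is the dye-balanced mean, not the plain mean of the 3 arrays. Pairs 4030603 and 4021001 also had the larger value in T over R. Pair 4030603 measured 0.89 ± 0.19, 1.46 ± 0.15 and -0.46 ± 0.13, in the order T over C, T over R and R over C. Pair 4021001 measured 0.81 ± 0.06, 1.23 ± 0.16 and -0.52 ± 0.23 in that order. With the trend removed, both spots of 12030405 and of 4021001 and 1 spot each of 8040601 and 4030603 no longer met the rule.

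The other named positive pairs had R over C nearer to zero or on the positive side. Pair 5030409 measured 1.23 ± 0.23 in T over C, 1.01 ± 0.19 in T over R and 0.12 ± 0.22 in R over C with the trend removed. Pair 9040613 measured 1.06 ± 0.05, 1.05 ± 0.17 and -0.17 ± 0.12 in that order. In both pairs the arrays of T over C and of T over R overlapped. Pair 10020705 leaned the other way, with 1.23 ± 0.11 in T over C, 0.81 ± 0.08 in T over R and 0.33 ± 0.05 in R over C, and 1 of its spots no longer met the rule. The 20 further positive pairs ran from 0.85 to 1.38 in T over C, from 0.85 to 1.19 in T over R and from -0.31 to 0.41 in R over C on centred values. With the trend removed, some of these pairs kept both spots under the rule, among them 3010305 and 1010903. Others kept none, among them 6031007 and 1031105.

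Pair 3010405 stood out on the negative side. Its centred arrays measured -1.21, -3.34 and -3.18 in T over C and -0.64, -1.14 and -2.71 in T over R. R over C measured 0.60, 0.82 and -1.59. Removing the dye trend gave -2.21 ± 0.17 in T over C, -1.68 ± 0.07 in T over R and -0.53 ± 0.10 in R over C (SD, 3 arrays), the last past the limit of 0.5, so that neither spot met the rule any more. The centred means correspond to sizes of 4.72-fold in T over C and 3.48-fold in T over R.

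The next negative pairs were smaller and alike. Pair 7010603 measured -1.35, -1.38 and -1.46 in T over C, -1.24, -1.35 and -1.28 in T over R, and -0.14, -0.19 and -0.16 in R over C once the trend was taken out. Its T arrays were far from its R over C arrays, with no overlap. Pair 6020413 measured -1.38 ± 0.08, -1.12 ± 0.20 and -0.18 ± 0.16 in the same order. Pair 7010301 measured -1.24 ± 0.10, -1.09 ± 0.06 and -0.20 ± 0.05. Pairs 9020301, 11010409 and 12040601 had T over C means of -1.16, -1.21 and -1.23 and T over R means of -1.01, -1.02 and -1.08. Their R over C means were -0.20, -0.34 and -0.06. Pair 1020603 was the least even, at -1.43 ± 0.26, -1.29 ± 0.33 and -0.36 ± 0.62: 1 of its R over C arrays read -1.13 against 0.02 and -0.16 on the others. The 3 unnamed negative pairs ran from -0.89 to -0.85 in T over C and from -1.05 to -0.95 in T over R on centred values.

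**Figure D2:**
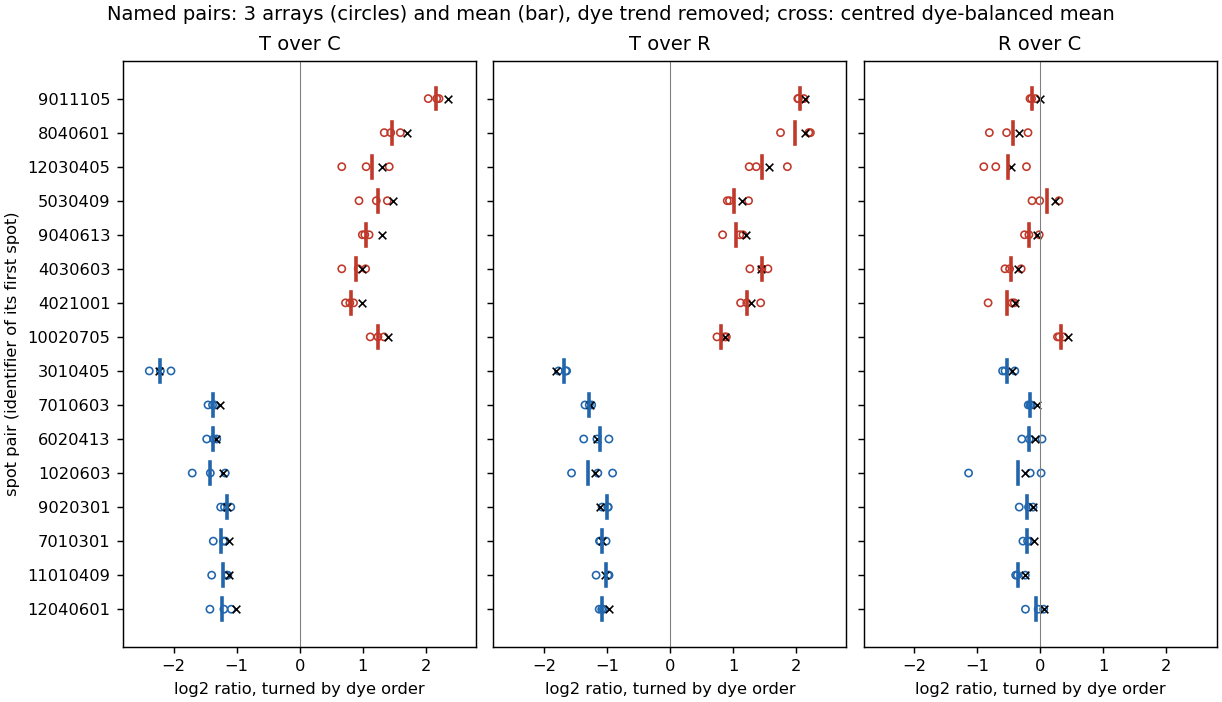
The 16 named pairs (8 positive in red, 8 negative in blue) in T over C, T over R and R over C, as turned log2 ratios. Circles are the 3 arrays and bars their dye-balanced mean, both with the dye trend removed. Crosses are the centred dye-balanced means. At pair 9011105 the T arrays lie between 2.03 and 2.21, while R over C lies between -0.16 and -0.07.

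In the T comparisons, members had the same sign on all repeat arrays more often than spots in general. These are the arrays whose means chose the members, so a high share follows largely from the rule and supports nothing. On centred values 73 of the 104 members (70.2%) had the same sign on all 3 T over C arrays, against 17.0% of all spots. For T over R it was 100 members (96.2%) against 21.2%, and for R over C 9 members (8.65%) against 16.2%. With the dye trend removed all 104 had the same sign on the 3 arrays in T over C (48.7% of all spots) and in T over R (45.8% of all spots). In R over C it was 53 (51.0%), against 40.3% of all spots. The next counts also come from the values that chose the members and are read as no more than that. With the trend removed, 95 of the 104 had a size of at least 0.5 on each of the 6 arrays with the T pool, against 2.43% of all spots. At 101 members every such array lay beyond every R over C array, against 13.1% of all spots. On centred values 16 members did so, against 1.13%. T over C and R over C, which share the C pool, lay on opposite sides on all their arrays at 25 members with the trend removed and at 4 on centred values, against 6.26% and 0.836% of all spots. The median SD over 3 arrays is given in the order T over C, T over R and R over C. On centred values it was 0.92, 0.83 and 0.86 at members, against 0.51, 0.48 and 0.44 over all spots. With the trend removed it was 0.13, 0.14 and 0.18 at members, against 0.17, 0.18 and 0.17 over all spots.

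Correlations between arrays over the members are shaped by the rule. With the trend removed, the 3 arrays of T over C correlated with each other at 0.97 to 0.98 over the 104 members, and those of T over R at 0.94 to 0.96. Those of R over C correlated at 0.35 to 0.48. Over all spots the ranges were 0.64 to 0.73 in T over C, 0.48 to 0.59 in T over R and 0.38 to 0.54 in R over C. These are descriptions across spots that share arrays and RNA. Members on opposite sides spread the T values by construction, and the rule keeps R over C in a narrow range. The values therefore do not show that arrays order the members alike within a side. The loop of 3 comparisons should close, T over C being T over R plus R over C. The misfit had a median size of 0.13 at members, against 0.16 over all spots, and an SD of 0.19 against 0.24. The rule sets limits on all 3 ratios and so favours spots where the loop closes. The smaller misfit at members supports nothing.

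The second spot of a pair gave a reading the choice of spot did not use. With odd-column spots choosing, 48 spots met the rule. The even-column partner lay on the same side in both T comparisons at all 48, and it met the rule at 39 (81.3%), against 1.28% of partners over all pairs. Partner medians were 1.08 in T over C, 1.02 in T over R and 0.11 in R over C, each turned to the side of the choosing spot. With even-column spots choosing, 39 of 56 partners met the rule (69.6% against 1.10%). The partner shares its array, RNA and place on the slide, so this is agreement within a hybridisation. Of the 26 members without a member partner, the partner missed T over C in 4, T over R in 22 and R over C in 2. These partners had median values of 0.97, 0.76 and 0.16 in the 3 comparisons.

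**Figure D3:**
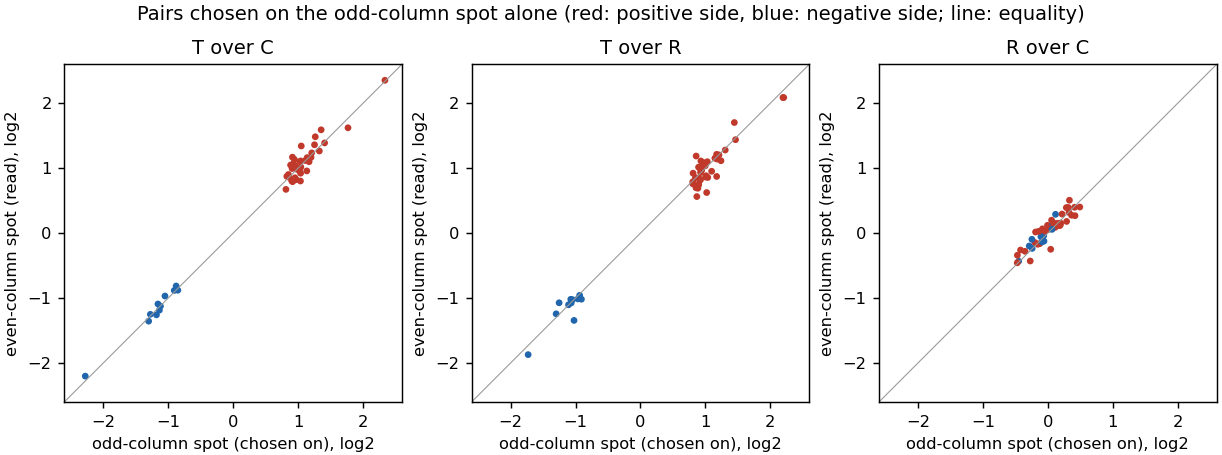
Values of the even-column spot against the odd-column spot for the 48 pairs chosen on the odd-column spot alone, in T over C, T over R and R over C (log2, dye-balanced, not turned to a side). The 48 partners lie along the line of equality, with R over C of both spots staying within about 0.5.

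In a second reading, with the dye trend removed, the 2 arrays of like dye order in each comparison chose and the array of opposite order was read. The like order had the first-named pool in Cy3 for T over C and in Cy5 for the other comparisons. The 6 choosing arrays gave 76 spots (42 positive, 34 negative). On the 3 arrays read, 74 were on the same side in both T comparisons, and 47 met the rule (61.8%, against 0.973% of all spots). Their medians on those 3 arrays were 0.99 in T over C, 0.95 in T over R and 0.15 in R over C. When those 3 arrays chose, 47 of 85 spots met the rule on the other 6 (55.3%, against 0.870% of all spots). With the dye trend left in, 1 of 10 spots chosen by the 6 arrays met the rule on the other 3 (10.0%, against 0.0458% of all spots). In the reverse direction it was 1 of 4 (25.0%, against 0.115%). Each set of arrays held 1 dye order per comparison, so with the trend left in the ratios were not dye-balanced. The trend curve uses all 9 arrays, so choosing and reading arrays are not fully separate.

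The members shared a high mean over the unturned arrays (the dye mean), which the rule did not set directly. Around the loop the pool differences cancel in the unturned mean of the 9 arrays, so that mean holds what does not follow the pools, such as a spot's dye bias. All 104 members lay above the median of all spots on it, at a median percentile of 83.9 and a lowest of 52.6. With all spots split into 5 equal bins of that mean, 59 members were in bin 5, the highest, 39 in bin 4, 6 in bin 3 and 0 in bins 1 and 2. In the 82 spots that met the mirror rule, with R over C past 0.8 and T over R under 0.5, all 82 were above the median, at a median percentile of 83.2. Among the other 320 spots past the limit in T over C, 316 were, at 78.4. The high dye mean was thus shared with other spots past the T over C limit. Non-member spots in bin 4 had a median T over C of 0.25 on centred values, against -0.18 in bin 1 and 0.07 in bin 5. Their median T over R was 0.16 in bin 4 and -0.05 in bin 5. Spread also differed: the SD of T over C at non-member spots was 0.15 and 0.18 in bins 1 and 2, against 0.44 and 0.52 in bins 4 and 5. Non-member spots in the low bins thus varied less. Whether this spread or the shift in medians bears on the bins of the members was not tested. With the trend removed the T over C medians were 0.00, 0.02 and -0.03 in bins 1, 4 and 5. With the trend removed, 54 of the 104 members still met the rule.

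**Figure D4:**
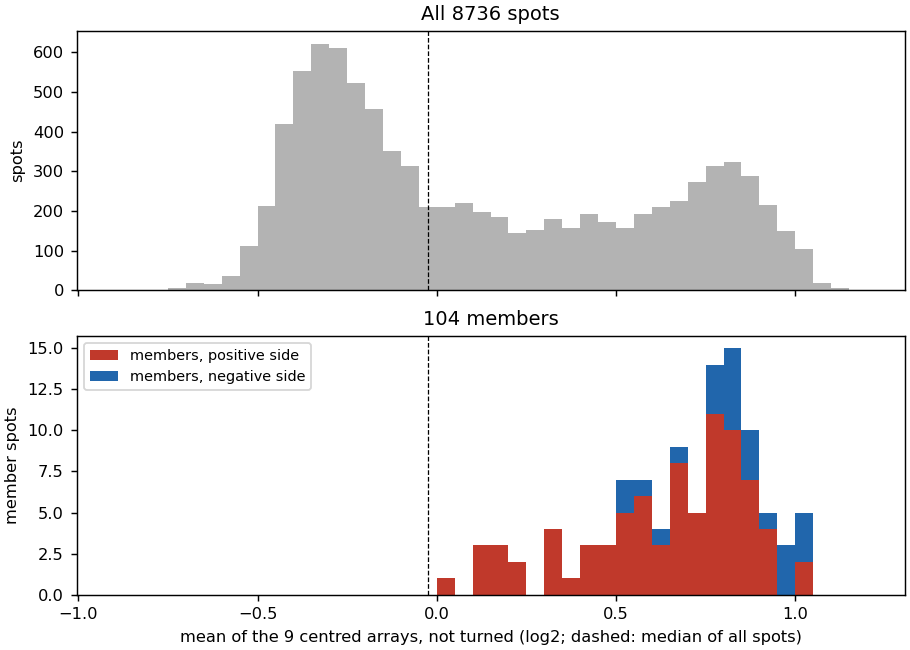
Histograms of the unturned mean of the 9 centred arrays for all 8736 spots (top) and for the 104 members (bottom; red 81 positive, blue 23 negative). The dashed line is the median of all spots, and all 104 members lie to its right.

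Removing the dye trend changed membership mostly on the positive side. With it removed the rule was met by 0.767% of spots, 67 in all, of which 35 were positive and 32 negative, so the positive share was 52.2% in place of 77.9%. 54 spots met the rule in both settings, 33 positive and 21 negative, which is 51.9% of the 104 and 80.6% of the 67. 48 positive and 2 negative members were lost, and 2 positive and 11 negative spots were gained. Medians of the 81 positive members were 0.86 in T over C, 0.90 in T over R and -0.03 in R over C with the trend removed, against 1.04, 0.96 and 0.09 without. For the 23 negative members they were -1.21, -1.08 and -0.18, against -1.12, -1.07 and -0.09. R over C with the trend removed lay on the side of centred T over C at 20 of the 23 negative and 38 of the 81 positive members. Over all spots it did so at 5109 of 8736.

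**Figure D5:**
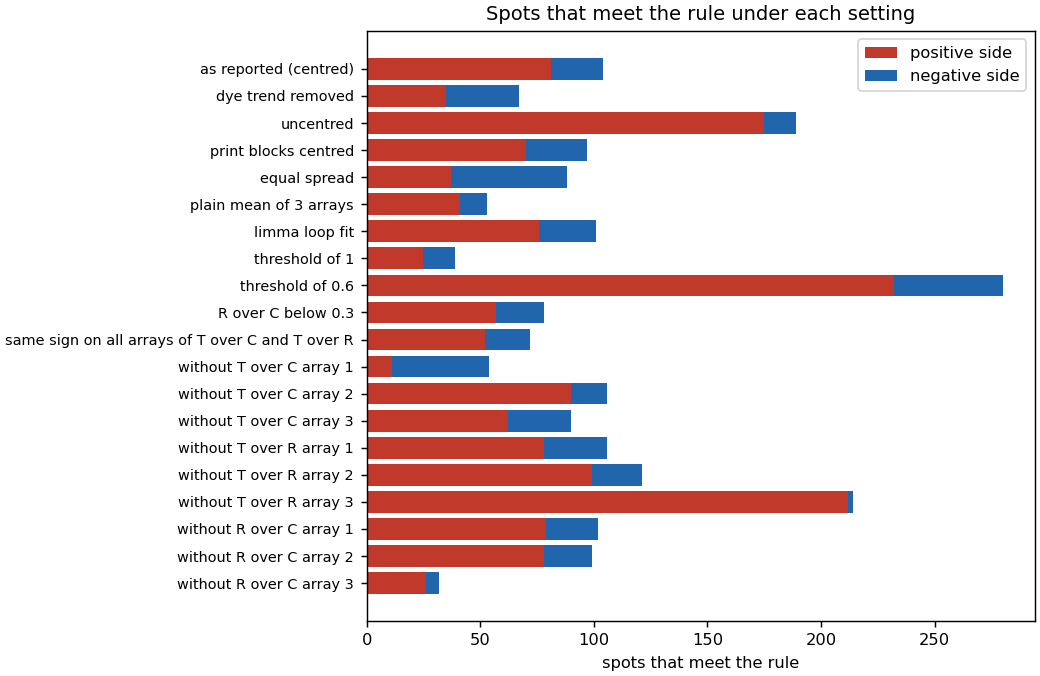
Spots that met the rule under each setting, positive side in red and negative in blue, with 104 as reported (81 and 23). Removing the dye trend gave 67 (35 and 32), and leaving out array 3 of T over R gave 214 (212 and 2).

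The members were spread over the slide, with a single block that held more than others. They fell in 37 of 48 print blocks, as read from the spot identifiers, and 11 blocks had none. The block in row 12 and column 3 held 10 members, all positive (5.49% of its 182 spots), against at most 5 in any other block. It covered 7 pairs, 3 of them with both spots. With block medians removed 4 spots there met the rule, and with the dye trend removed 3 did.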

How the data were processed

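Liver RNA pools from 5 fish each were compared on 9 2-colour spotted cDNA arrays. The deposited values are log2 ratios of the channels made by the authors. The base was read from the values: 995 of 78624 were logs of whole-number ratios (denominator at most 1000, tolerance 1e-09) in base 2, against 15 after a small shift, with 24 against 22 in base e and 84 against 75 in base 10. Array medians of -1.39 to -0.586 show no centring. Not given in the sources used here were the scanner, quantification and background treatment. No intensities were used.

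The median of each array was subtracted and the sign turned by dye order, then arrays of like order were averaged, then both orders. An additional setting took off a lowess fit against the 9-array mean (fraction 0.3, 3 iterations). Alternatives included print-block centring, a limma 3.58.1 loop fit (R 4.3.3) and leaving out each array, and trend removal combined with leaving out arrays was chosen after the data were seen. Scripts were tested on simulated data. Python 3.11.15, numpy 2.4.6, pandas 2.3.3, statsmodels 0.14.6 and matplotlib 3.10.9 were used. The spot layout (48 blocks of 13 rows and 14 columns) and pairs are a reading of the identifiers. Members and lists were chosen with earlier results of these data known. The first 8 pairs per side with both spots as members, by mean size in T over C and T over R, were named. With 1 pool per condition there is no test and no p-value. The number of repeat arrays limits the precision of the hybridisations only, and says nothing on differences between fish.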

Additional observations from a re-analysis of the deposited data

Results flagged for a closer look

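With the dye trend removed, 25 of the 104 members lay on one side on all 3 T over C arrays and on the other side on all 3 R over C arrays, as did 547 of 8736 spots in all (6.26%). On centred values it was 4 members, the spots of pairs 8040601 and 12030405, and 73 of all spots (0.836%). The T over C and R over C comparisons share the C pool, the arrays are repeats of the same RNA, and the difference was not tested. With the trend removed, all 104 members had one sign on the 3 T over C arrays, against 48.7% of all spots. The choice of members thus raises their share by itself. In R over C 53 members had one sign on all 3 arrays. The 25 are among these, and the rest of the 53 lay on the same side as T over C. R over C at the 25 members ran from -0.59 to 0.17 with the trend removed. At spot 9011105 T over C was 2.11 and R over C -0.20.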

How the results depend on the processing

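The spot count, its positive part and the number of pairs with both spots as members were 104, 81 and 39. They were 67, 35 and 22 with the dye trend removed, 189, 175 and 74 without centring, and 53, 41 and 18 with a plain mean of the 3 arrays (median T over R 1.15). Other settings moved them less: 101, 76 and 41 in the limma loop fit and 97, 70 and 36 with print-block centring. An R over C limit of 0.3 gave 78, 57 and 28. Applied to pair means, the rule was met by 51 pairs (102 spots, 80 of them positive). A threshold of 1 gave 39, 25 and 14, with medians of 1.24 in T over C and 1.17 in T over R. A threshold of 0.6 gave 280, 232 and 112, with medians of 0.91 and 0.79. Equal spread gave 37 positive spots, and the same sign on all T arrays gave 52. The positive share was 92.6% without centring, 42.0% with equal spread, 64.1% at a threshold of 1, 20.4% without T over C array 1 and 99.1% without T over R array 3. Leaving out one array at a time gave 32 to 214 spots, 11 to 212 positive spots, 11 to 79 pairs, medians of 0.96 to 1.55 in T over C and 0.98 to 1.41 in T over R. The extreme spot counts came from omitting the single array of its dye order within a comparison: 54 spots without T over C array 1, 214 without T over R array 3 and 32 without R over C array 3. With the dye trend removed, the same omissions gave 66 to 77 spots. Spots meeting the rule in both settings numbered 54, with 7 to 60 over the omissions (7 without R over C array 3). The trend curve was fitted against the mean of all arrays, with the omitted array among them. That array thus still shaped the trend-removed values, so the narrower range of 66 to 77 is in part built in. Of spots chosen by 6 arrays, 61.8% met the rule on the other 3 with the trend removed (47 of 76). With the trend left in it was 10.0% (1 of 10), on ratios that were not dye-balanced. The causes were not tested. No paired analysis was possible because each comparison has 1 pool per condition. Signal over background was not used here, so dim spots could not be set apart.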
